A study of Mus musculus with 4 samples.

Results

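Mrc1, Cd163, Stab1, Msr1, Marco, Folr2, Vsig4 and Timd4, cell surface receptors by which macrophages bind and take up particles, modified lipoproteins, glycoproteins and dying cells, were followed across 4 arrays of primary calvarial osteoblast cultures. They are 8 of the 22180 genes that had an array row of their own, each read by 1 row. They were chosen by name, with their difference between the groups of this study already known, so the values of the 8 are a description and carry no test. Every array held total RNA of osteoblast progenitors from neonatal mouse calvaria after 21 days in medium with ascorbate and glycerol phosphate. In 1 group, called mutant-labelled here, the mice carried floxed Runx3 alleles and a Cre recombinase driven by Col1a1, a gene active in cells that make type I collagen (Runx3f/f/Col1a1-cre). The other group was wild type (WT), and no label tells whether it carried floxed alleles or the Cre. Also without a label are the strain, the deleted exons or the number of animals behind a culture. Each group had 2 arrays, called biological replicates 1 and 2, and no source says whether these came from separate animals, so their spread may be partly technical.

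Scavenger receptors are a structurally mixed class of proteins that share the capacity to bind many polyanionic or altered ligands and carry them into endosomes. In bone, as in other tissues, resident macrophages lie next to the cells that build the matrix, and primary calvarial cultures commonly hold some of them beside the osteoblasts. Most of the receptors described here mark resident macrophages rather than recently arrived monocytes, although Stab1 and Mrc1 are also made by sinusoidal and lymphatic endothelium.

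On the mutant-labelled arrays, 7 of the 8 receptor genes lay below wild type within both replicates, by 9.02-fold for Vsig4, 7.64-fold for Mrc1, 4.93-fold for Folr2, 3.16-fold for Stab1, 2.47-fold for Msr1, 1.67-fold for Marco and 1.52-fold for Cd163. Timd4 held exactly equal values on the 2 arrays of each replicate. In RNA of a whole culture, fewer macrophages and less receptor RNA per macrophage cannot be told apart. The fold of Cd163 includes a mutant-labelled value below the detection floor, in replicate 1. Values are on the deposited scale, taken as log2, and a fold is 2 to the power of a log2 difference. Of all 17841 genes tested, 19.5% were lower within both replicates. Testing required values above 4.71 on 2 arrays or more, a floor set at the 90th percentile of olfactory and vomeronasal receptor rows, which all 8 receptors met. Timd4 did so through replicate 2 alone, and its replicate 1 values lay below the floor.

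**Figure D1:**
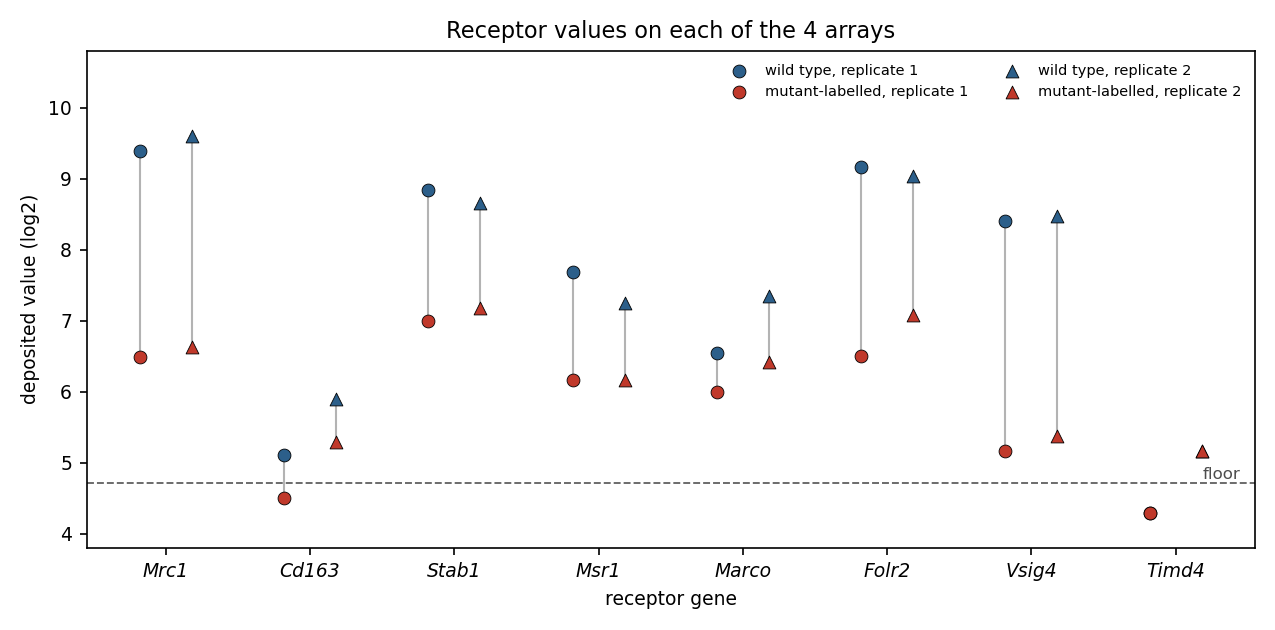
Deposited value, taken as log2 (vertical axis), of each receptor gene on the 4 arrays, with circles for replicate 1 and triangles for replicate 2. Blue marks wild type and red mutant-labelled, a grey line joins arrays of 1 replicate and a dashed line lies at the floor of 4.71. Vsig4, Mrc1 and Folr2 show the widest gaps, the arrays of Cd163 overlap between groups, and the red symbols of Timd4 cover the blue ones because the values are equal.

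Sequences just upstream of the transcription start are shown for 5 receptors, the 4 with the largest differences and Timd4, whose values were equal between groups. Marco and Cd163, which were also lower, had windows that are not shown. They come from RefSeq on build GRCm38.p6, in which 7 of the 8 genes had an entry, Folr2 with 2 start sites, and Msr1 was not among them. Each line gives the 250 bases before the start, 5′ to 3′ on the gene's strand. Capitals mark matches, on either strand, to GAGGAA, the core bound by PU.1, a factor that macrophages depend on, or to TGTGGT and TGCGGT, cores bound by Runt factors such as Runx3. The upstream of the 2 Folr2 windows is shown.
Mrc1, chr2:14229164-14229413, + strand: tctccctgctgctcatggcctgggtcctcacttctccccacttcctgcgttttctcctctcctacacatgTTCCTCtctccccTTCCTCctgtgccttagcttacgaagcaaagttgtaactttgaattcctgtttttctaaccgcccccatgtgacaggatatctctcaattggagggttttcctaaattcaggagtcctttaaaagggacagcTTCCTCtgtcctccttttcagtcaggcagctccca
Vsig4, chrX:96293439-96293688, - strand: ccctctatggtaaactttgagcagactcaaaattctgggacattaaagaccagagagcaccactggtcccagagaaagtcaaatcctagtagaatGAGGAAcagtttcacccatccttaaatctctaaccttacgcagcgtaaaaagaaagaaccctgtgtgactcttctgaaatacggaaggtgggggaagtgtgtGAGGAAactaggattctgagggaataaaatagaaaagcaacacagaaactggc
Folr2, chr7:101857191-101857440, - strand: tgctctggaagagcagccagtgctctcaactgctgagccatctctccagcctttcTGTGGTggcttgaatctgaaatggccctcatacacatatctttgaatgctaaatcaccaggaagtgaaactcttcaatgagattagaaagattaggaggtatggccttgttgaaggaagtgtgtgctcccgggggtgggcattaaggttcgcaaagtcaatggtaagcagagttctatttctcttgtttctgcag
Stab1, chr14:31168642-31168891, - strand: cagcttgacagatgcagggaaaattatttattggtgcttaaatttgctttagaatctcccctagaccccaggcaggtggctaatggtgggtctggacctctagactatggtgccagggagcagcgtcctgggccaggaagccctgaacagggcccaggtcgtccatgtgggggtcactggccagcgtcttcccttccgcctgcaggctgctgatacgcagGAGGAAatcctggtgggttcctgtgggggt
Timd4, chr11:46810549-46810798, + strand: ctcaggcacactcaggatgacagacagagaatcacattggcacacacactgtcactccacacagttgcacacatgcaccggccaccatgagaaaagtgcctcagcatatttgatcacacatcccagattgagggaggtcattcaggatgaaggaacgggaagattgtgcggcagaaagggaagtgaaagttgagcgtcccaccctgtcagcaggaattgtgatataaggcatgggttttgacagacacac

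The PU.1 core was present in 4 of the 8 receptor windows and in 23.3% of 32851 windows of the same length in the genome-wide table. Mrc1 held 3 copies, all on the opposite strand (TTCCTC), whose first bases lay 180, 167 and 35 bases before the start. Vsig4 held 2, at 155 and 53 bases, Stab1 held 1, at 30 bases, and Marco held 1, at 146 bases. A Runt core was found in 1 of the 8 windows, as TGTGGT at 195 bases before the upstream start of Folr2, against 18.6% of all windows for either core (14% for TGTGGT and 5.1% for TGCGGT). The MAF recognition core TGCTGAC lay in the Timd4 window alone of the 8 (3.81% of all windows), on the opposite strand at 45 bases. The AP-1 site TGANTCA, which can overlap the MAF core, lay in the downstream Folr2 window (6.75% of all windows), at 74 bases. The TATA box TATAAA was in 0 of the 8 windows (12.4% of all). The Cd163 window held a match to none of these motifs. These matches describe letters in a short window only.

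Vsig4, also called CRIg, is an immunoglobulin-family receptor that binds complement fragments C3b and iC3b on particles. It read 5.16 and 5.37 on the mutant-labelled arrays of replicates 1 and 2, against 8.41 and 8.48 in wild type. Both mutant-labelled values were low and close to the floor, and the groups were separated by 3.03 log2 units between the nearest arrays. The group means were 5.27 ± 0.15 and 8.44 ± 0.05 (SD, n = 2), a log2 difference of -3.17, with -3.24 within replicate 1 and -3.10 within replicate 2. By its mean difference Vsig4 ranked 4 from the lowest among the genes tested.

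Mrc1, the mannose receptor CD206, binds glycans that end in mannose or fucose, and collagen fragments. Its values were 6.49 and 6.62 on the mutant-labelled arrays and 9.38 and 9.60 in wild type. The arrays of each group lay within 0.21 of each other, while the groups did not overlap. The difference was -2.93, with -2.90 and -2.97 within the replicates, and it ranked 6 from the lowest. Of its family, Mrc2 (Endo180), a collagen receptor of mesenchymal cells, read 11.59 and 11.73 against 11.69 and 11.74 and differed by -0.06.

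Folr2, folate receptor beta, is a lipid-anchored receptor that internalises folate. It read 6.51 and 7.08 on the mutant-labelled arrays and 9.16 and 9.03 in wild type. The mutant-labelled arrays stood further apart than the wild-type arrays, with means of 6.79 ± 0.41 and 9.10 ± 0.09 (SD, n = 2), and the groups did not overlap. The difference was -2.65 within replicate 1 and -1.95 within replicate 2, the widest gap between replicates among the 8. Folr1, the epithelial folate receptor, was at 5.70 (replicate 1) and 6.08 (replicate 2) in either group.

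Stab1, stabilin-1, takes up acetylated lipoproteins and the matrix protein SPARC. Its values were 6.99 and 7.18 on the mutant-labelled arrays against 8.83 and 8.66 in wild type. All mutant-labelled values were lower and the nearest arrays of the groups were 1.48 apart. The difference was -1.84 within replicate 1 and -1.48 within replicate 2. Stab2, its endothelial relative, read 5.49 and 5.96 against 5.39 and 5.96 and differed by 0.05, and Sparc, the ligand made by osteoblasts, differed by -0.03 (12.64 and 12.95 against 12.69 and 12.95).

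Msr1 and Marco are the class A scavenger receptors of macrophages, trimers with a collagen-like stem. Msr1, a receptor for modified low-density lipoprotein, read 6.16 on both mutant-labelled arrays and 7.68 and 7.25 in wild type, so that the groups did not overlap. It differed by -1.52 within replicate 1 and -1.09 within replicate 2. Marco, which binds bacteria and inhaled particles, read 5.99 and 6.42 on the mutant-labelled arrays and 6.55 and 7.34 in wild type. The nearest arrays of the groups were only 0.12 apart, and the spread in wild type (SD 0.56, n = 2) was close to the difference itself (-0.74). Within the replicates Marco differed by -0.56 and -0.92, the first of which is 1.47-fold. Leaving out a wild-type array changed the mean difference to -0.34 (replicate 2 left out) or -1.14 (replicate 1 left out). These 2 values and the wild-type spread also hold the gap between replicates. Replicate 2 exceeded replicate 1 by 0.80 in wild type and by 0.44 on the mutant-labelled arrays.

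Cd163 is the receptor that clears complexes of haptoglobin and haemoglobin. It was dim, at 4.50 and 5.29 on the mutant-labelled arrays and 5.10 and 5.90 in wild type. The mutant-labelled array of replicate 2 lay above the wild-type array of replicate 1, so the groups overlapped, although within each replicate the mutant-labelled array was lower, by 0.60 and 0.61 log2 units. Replicate 2 exceeded replicate 1 by 0.80 between the wild-type arrays, where the median gene tested was 0.28 higher in replicate 2 and 5253 genes of mean level below 6 were 0.65 higher on average. The difference of Cd163 was -0.20 when wild-type replicate 2 was left out and -1.003 when wild-type replicate 1 was.

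Timd4, a receptor for phosphatidylserine on dying cells that marks long-lived resident macrophages, read 4.30 in replicate 1 and 5.17 in replicate 2 whatever the group. Exactly equal values were common in this table, in 37.8% of the rows for replicate 1 and 45.1% for replicate 2, and 25.7% of the genes tested were equal in both replicates. No source used here says how they arose. The equal values of Timd4, of which those in replicate 1 are below the floor, therefore do not establish that the gene was unchanged.

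Counted over the set, 6 of the 8, Cd163 with its value under the floor among them, were at least 1.5-fold lower within both replicates, which was met by 1.15% of the genes tested, and Marco was the lower receptor that missed it. At least 2-fold lower within both were 5 of the 8, against 0.572% of genes, and at least 4-fold lower were Vsig4 and Mrc1, against 0.0953%. Groups did not overlap, with mutant-labelled lower, for 6 of the 8 and for 9.25% of genes. The median difference of the 8 was -1.48, with -1.68 within replicate 1 and -1.28 within replicate 2, beside 0 for all genes tested. The choice of the genes used these differences, so nothing is read from the counts. The limma fit over all genes (empirical Bayes, Benjamini-Hochberg adjustment) called 0 genes at an adjusted p under 0.05 (0%), where 707 (3.96%) had an unadjusted limma p under 0.05.

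**Figure D2:**
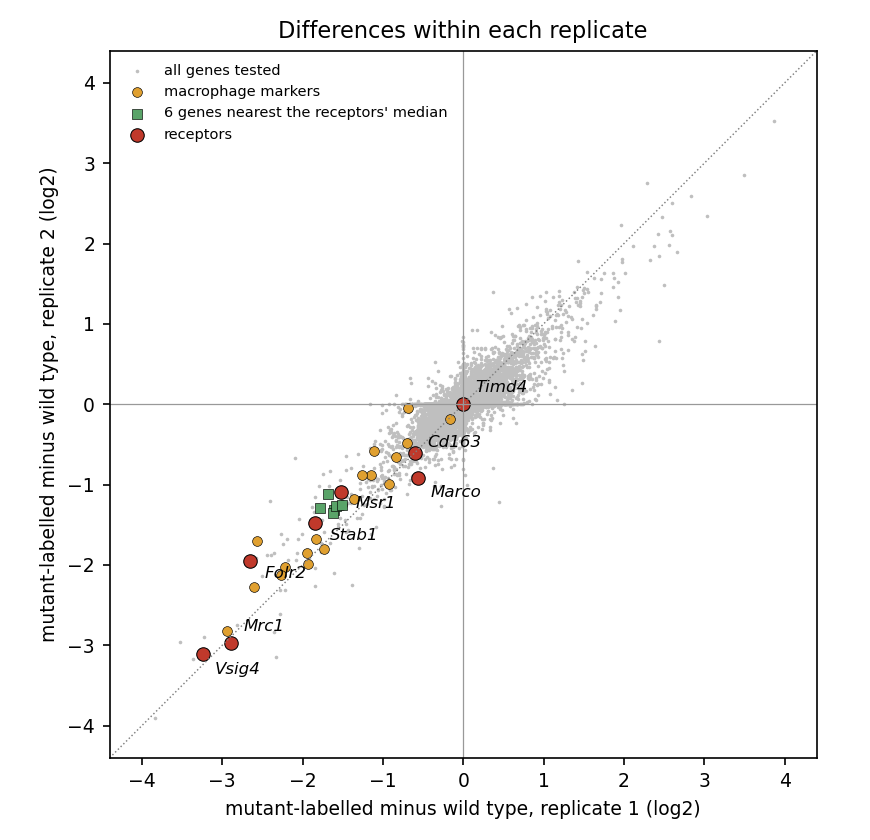
Log2 difference, mutant-labelled minus wild type, within replicate 1 (horizontal axis) and replicate 2 (vertical axis), with grey dots for the 17841 genes tested, red for the 8 receptors, orange for 22 macrophage markers and green squares for the 6 genes nearest the receptors' median; the dotted line marks equal differences. The receptors run from Timd4 at 0 to Vsig4 at -3.24 and -3.10, which lies beyond the lowest macrophage marker, Ms4a7 (-2.94 and -2.82). Folr2 (-2.65 and -1.95) lies furthest from the line among the receptors.

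General macrophage markers were lower on the same arrays. Of 22 such genes, all tested, 19 were lower within both replicates, 16 by at least 1.5-fold, and 0 were higher in both. Over all genes tested the shares were 19.5% lower at any size and 1.15% by at least 1.5-fold. Aif1, Cx3cr1 and Mertk were equal in both replicates. Adgre1, which encodes F4/80, read 5.61 and 6.16 against 8.21 and 8.44. The median of the list was -1.31 within replicate 1 and -1.09 within replicate 2, and the sum of its linear values was 3794 and 4220 on the mutant-labelled arrays against 10195 and 10836 in wild type. Set against these list medians, Vsig4 lay further down, at -1.94 within replicate 1 and -2.01 within replicate 2. Mrc1 was at -1.59 and -1.88 relative to the list, Folr2 at -1.34 and -0.86, and Stab1 at -0.53 and -0.39. Msr1 was at -0.21 and 0.0030. Cd163 was above the list median by 0.71 and 0.48 and Marco by 0.75 and 0.17. The part of the macrophage markers in the receptor values was not tested.

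Markers of other cells that could carry these receptors, or be present in bone, were read on the same arrays. Of 13 endothelial genes, all tested, 3 were at least 1.5-fold higher within both replicates (1.47% of genes tested): Cdh5 at 1.49, Flt1 at 1.36 and Emcn at 1.12. Emcn lay under the floor on both wild-type arrays (3.76 and 4.42 against 5.15 and 5.26), and it was tested through the mutant-labelled arrays alone. Only Lyve1, the hyaluronan receptor of lymphatic endothelium and of some macrophages, was that far lower among them (-0.70; 6.86 and 6.90 against 7.63 and 7.52). The limma adjusted p of these 4 ran from 0.324 to 0.891. The summed endothelial level was 4453 and 4648 against 4188 and 4398 in wild type. Eng, which mesenchymal cells also make, gave 73.9% to 81.6% of it, and without Eng the sums were 1118 and 1214 against 769 and 963. Those sums include the higher Cdh5 and Flt1, so they do not show a rise across the list. Kdr, Tie1 and Flt4 were exactly equal within both replicates. Pecam1, Esam, Prox1 and Eng differed by -0.07, -0.02, -0.09 and -0.02, and Stab2 and Tek by 0.05 and 0.28. Of 11 osteoclast genes tested, Atp6v0d2 was lower by that fold (1.15% of genes tested) and 0 were higher. The osteoclast sums were 5187 and 5432 against 5169 and 5237, and Calcr and Car2 were not above the floor. Among monocyte and dendritic cell genes 7 of 12 were tested, Ccr2 and H2-Aa lay under the floor on every array, Xcr1 was above it on 1, and Ly6c2 alone passed the fold (5.42 and 7.66 against 6.21 and 8.59), with sums of 1388 and 1791 against 1172 and 1656. Cd209a made up 36.6% to 58.4% of these sums, and without it they were 578 and 813 against 612 and 1049. Of 7 neutrophil, 8 lymphocyte and 3 mast cell genes tested, 0 passed the fold in either direction. Exactly equal values within both replicates were held by 5 of these neutrophil and 6 of these lymphocyte genes. Above the floor on all 4 arrays were 3 neutrophil genes, 2 lymphocyte genes and 1 mast cell gene. The lists therefore do not establish that these markers were unchanged. The neutrophil sums were 273 and 383 against 279 and 383, the lymphocyte sums 229 and 314 against 225 and 316, and the mast cell sums 149 and 211 against 147 and 205. S100a8, Ly6g and Camp, Cd3g and Ms4a1, and 5 mast cell genes were under the floor, and their values are part of these sums. For every list the sums cover all genes with a row, tested or not.

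The cultures carried osteoblast RNA, with Col1a1 between 13.45 and 13.57 on all arrays. Of 12 osteoblast markers 5 were at least 1.5-fold lower within both replicates (Ibsp, Dmp1, Phex, Mepe and Ifitm5), against 1.15% of genes tested. The osteoblast sums were 41671 and 47727 against 46802 and 53022. They include the bright Ibsp, at 11.31 and 11.66 against 12.87 and 13.19, so they do not show a fall across the list. Col1a2, Alpl and Sparc differed by -0.02, -0.03 and -0.03, Bglap by -0.54, and Sp7 and Postn by 0.19 and 0.26. The tissue tag of the samples reads myoblast, whereas their cell type tag reads primary osteoblasts. Of 11 muscle genes, 9 were above the floor on all 4 arrays, among them the muscle factor Myod1 (5.45 in replicate 1 and 6.42 in replicate 2, equal between groups), and Myf6 and Myh3 were under it. Between the groups 0 of the 9 passed the fold. The sums of the list were 692 and 901 against 594 and 868. Des made up 29.4% to 39.8% of these sums, and without it they were 417 and 598 against 401 and 613. The 5 adipocyte genes tested had 0 past the fold, with sums of 1266 and 1197 against 1519 and 1284, of which Fabp4 made up 76.5% to 87.5%. Adipoq was above the floor on 1 array. Runx3 itself was not lower on the mutant-labelled arrays (7.94 and 8.06 against 7.45 and 7.87), which the labels do not allow to be read as a check of the deletion.

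**Figure D3:**
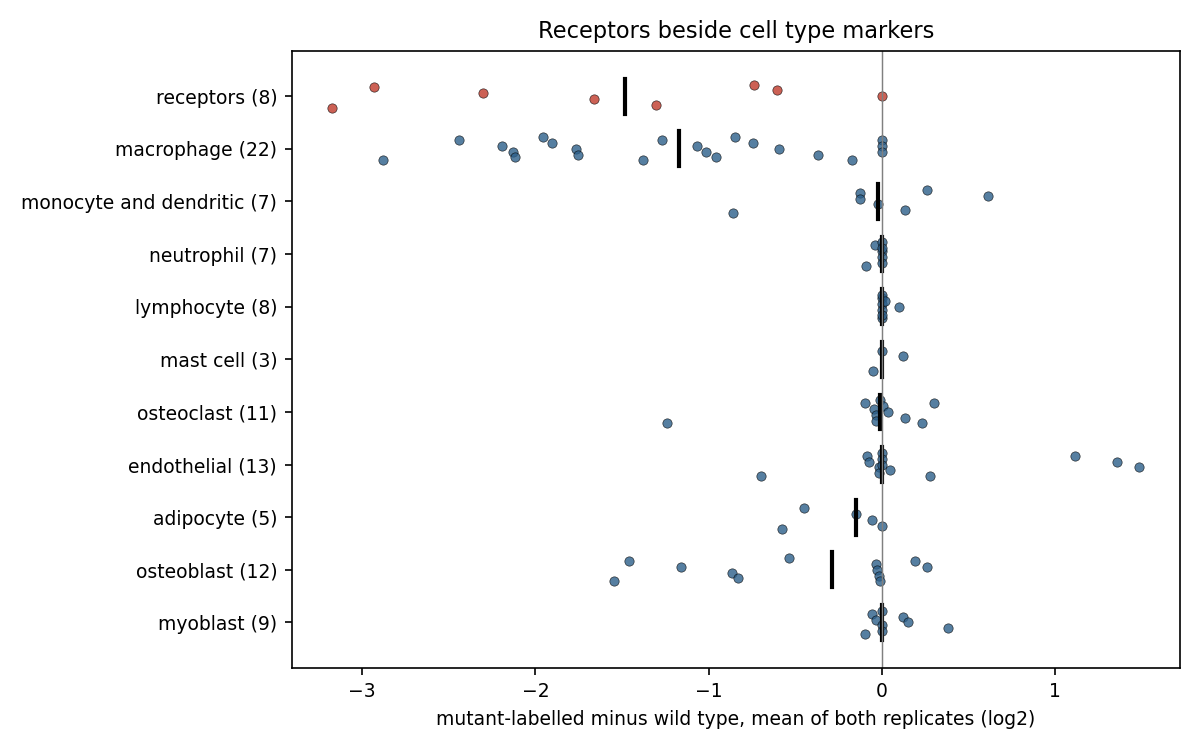
Mean log2 difference, mutant-labelled minus wild type (horizontal axis), of each tested gene in the receptor set (red) and in 10 lists of cell type markers (blue), with the number of tested genes in brackets and a black bar at the list median. The receptors and the macrophage markers extend to -3.17 and -2.88, whereas the medians of the neutrophil, lymphocyte, mast cell, endothelial and muscle lists are 0. Each of the lists with a median of 0 holds exactly equal values, among them 5 of 7 neutrophil and 6 of 8 lymphocyte genes. A median of 0 therefore does not establish that a list was unchanged.

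Other uptake receptors were compared by list, with 0 genes of any list past the adjusted limma threshold in the fit with genotype as the sole term, which does not show that they did not differ. At an unadjusted limma p under 0.05 there were 8 lower and 1 higher of 14 lectin receptors and 4 lower of 8 complement receptors. Lower by that p were also 3 of 14 haem and iron genes and 2 of 18 scavenger receptors. Macrophage factors had 2 lower and 1 higher of 14, apoptotic uptake 1 lower of 18 and the LDL receptor family 1 lower of 12. Of 7 folate and 21 endocytic machinery genes there were 0. Over all genes tested 3.96% passed that p in either direction, so nothing is read from the counts of 1. The share at least 1.5-fold lower within both replicates was 1.15% of all genes tested. Among 14 tested C-type lectin and related receptors 7 were at least 1.5-fold lower within both replicates and 0 higher, with a median of -0.69. Clec4e and Clec5a, counted among the 7, were under the floor on both mutant-labelled arrays and so entered through wild type alone. The count was 5 when the floor was the median row, and the median was -0.16 with no floor. Clec4n (dectin-2, a receptor for fungal mannans) read 5.04 and 5.29 against 7.26 and 7.60 (limma adjusted p = 0.312), Siglec1 (CD169, which binds sialylated glycans) 5.42 and 6.12 against 7.66 and 7.85 (0.503 as the adjusted p), and Clec4d 4.99 and 5.28 against 7.27 and 6.89 (0.336 likewise). Cd209a, a DC-SIGN relative, ran the other way at 9.66 and 9.93 against 9.13 and 9.25 (difference 0.61, limma adjusted p = 0.95), and was named after its values were seen.

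Complement receptors other than Vsig4 had 5 of 8 tested genes at least 1.5-fold lower in both replicates and 0 higher, with a median of -1.05. C3ar1, the receptor for C3a, read 6.18 and 6.66 against 8.22 and 8.09. Itgb2, the beta chain of complement receptors CR3 and CR4, read 6.03 and 6.35 against 7.36 and 7.77. Its partner Itgam was at -0.85, whereas Itgax, the partner in CR4, differed by -0.02. Cd93, also made by endothelium, was at -1.41. The limma adjusted p of C3ar1, Cd93 and Itgb2 was 0.431, 0.581 and 0.569.

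Of 18 other scavenger receptors tested, 2 were lower by that fold and 0 higher, and the median was -0.03. The pair was Cd36, a class B receptor for oxidised lipids and fatty acids, at 4.09 and 4.49 against 6.44 and 6.35 (under the floor on both mutant-labelled arrays, and tested through wild type alone), and Cd68, an endosomal macrophage glycoprotein, at 9.38 and 9.52 against 10.22 and 10.18. Cd14, the lipopolysaccharide co-receptor, was at -0.59. Colec12, a class A relative of Msr1 and Marco in stromal cells, read 12.44 and 12.66 against 12.12 and 12.31 (difference 0.33, limma adjusted p = 1). The groups of Colec12 did not overlap, with mutant-labelled higher, as in 7.66% of genes tested.

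Of 18 genes for uptake of dying cells, the process Timd4 serves, 2 were lower by 1.5-fold in both replicates and 0 higher (median -0.02). Trem2, a lipid receptor of macrophages, read 6.74 and 7.30 against 8.56 and 8.72, and Havcr2 (TIM-3), of the same gene family as Timd4, read 6.06 and 6.83 against 6.79 and 7.60, with groups that overlapped. Gulp1, an adaptor of engulfment, was at 0.27. The kinase receptor gene Mertk was equal within each replicate (9.28 and 9.06). The bridging molecules Gas6 and Mfge8, which stromal cells also secrete, were at 0.23 and -0.23.

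Genes for haemoglobin, haem and iron, the cargo of Cd163, had 3 of 14 tested genes lower by that fold and 0 higher (median -0.07). Hp, haptoglobin, read 6.83 and 7.02 against 8.48 and 8.75 (limma adjusted p = 0.324). Slc11a1, the divalent metal transporter of macrophage phagosomes, was at -1.30 and the transferrin receptor gene Tfrc at -0.70. Hmox1, haem oxygenase, read 11.69 and 11.54 against 11.70 and 11.54. Of 7 folate genes 0 passed the fold, and Fpgs, Slc19a1 and Slc46a1 differed by 0.13, 0.03 and 0.03. Of 12 genes of the LDL receptor family Vldlr alone passed (-0.72), with Lrp8 at -0.27 and Sorl1 at -0.20.

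The machinery that internalises such receptors was read alongside. Of 21 clathrin, adaptor, dynamin and endosome genes 0 passed the fold in either direction, the median was -0.02, and the members with the widest differences were Arrb2 at -0.20, Ap2s1 at -0.19 and Ap2a2 at -0.11. Among 14 macrophage transcription factors 2 were at least 1.5-fold lower within both replicates (Tfec at -0.85 and Pparg at -0.74) and Klf4 was higher at 0.66, with a median of -0.01. Tfec was tested through wild type alone, its mutant-labelled values (4.58 and 4.70) being under the floor. Spi1, which encodes PU.1, read 5.71 and 6.35 against 6.40 and 6.39, so that its difference was -0.69 within replicate 1 and -0.05 within replicate 2. Maf, which is also made by stromal cells, was at 0.22.

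**Figure D4:**
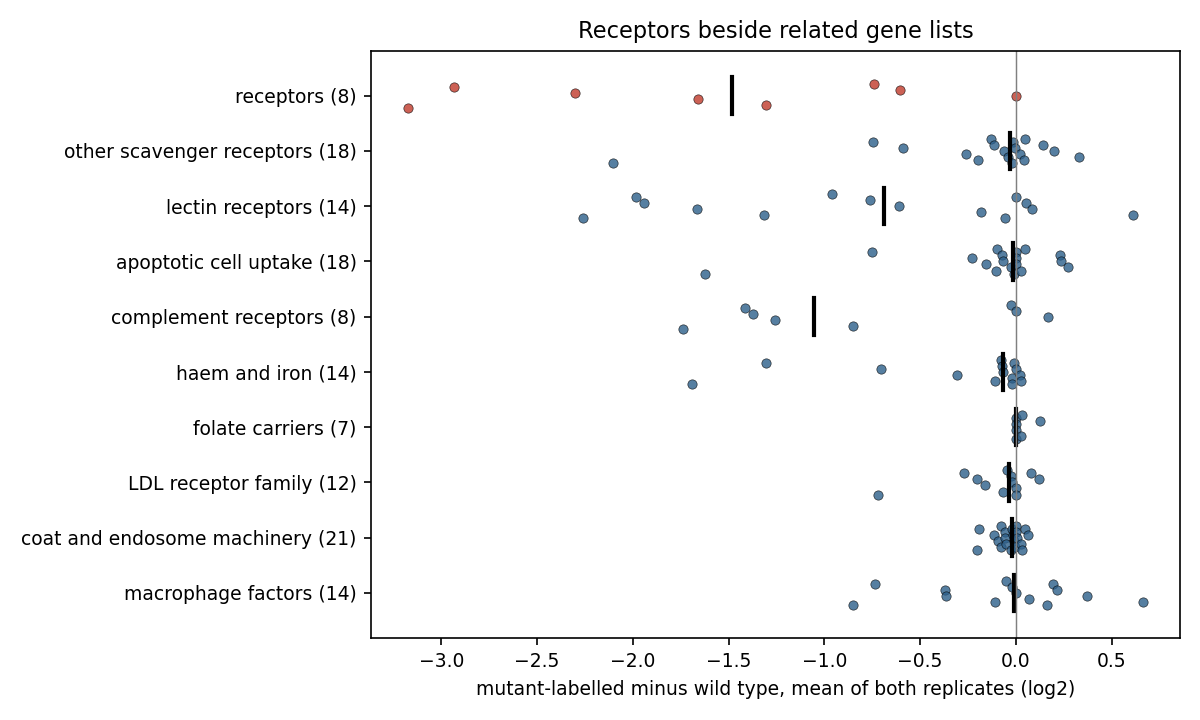
Mean log2 difference, mutant-labelled minus wild type (horizontal axis), of each tested gene in the receptor set (red) and in 9 lists of related genes (blue), with the number of tested genes in brackets and a black bar at the list median. Medians are -1.48 for the receptors, -1.05 for complement receptors and -0.69 for lectin receptors, and between -0.07 and 0.00 for the other 7 lists.

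By the distance between its 2 within-replicate differences and the median pair of the receptors (-1.68 and -1.28), the nearest of the 17833 other tested genes was Dmp1, a matrix protein of osteocytes, at a distance of 0.078 log2 units. Its values were 7.20 and 7.84 against 8.82 and 9.15. Next came Adam8 (0.093), Pcp4 (0.097), the secreted Wnt antagonists Sfrp1 (0.099) and Sfrp4 (0.16), and Csf1r (0.18), the receptor through which CSF1 keeps macrophages alive. The likeness rests on 2 differences of 4 arrays. It sets genes of osteocytes and of macrophages side by side.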

How the data were processed

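Values came from the deposited series matrix, with expression per transcript cluster on Affymetrix Mouse Gene ST arrays, taken here as log2. The authors made them with Partek and RMA, per the submitters' processing notes, which give no version, role or order. Neither the log base, the centring nor the way arrays were combined is stated there. Array medians were 5.50 (mutant-labelled) and 5.45 (wild type) in replicate 1 and 6.08 and 6.05 in replicate 2. With 2 arrays per group, the number of arrays limits the precision.

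Of 41345 rows, 23521 had 1 gene symbol in the platform annotation, 1814 several and 16010 none listed. Only rows with 1 symbol were used, and the brightest row stood for a gene. Of 276 list entries 261 had such a row. Genes with at least 2 arrays above 4.71 were tested with limma 3.58.1 in R 4.3.3 (lmFit, then eBayes; two-sided; all 4 arrays with genotype as the sole term). The fits and counts were also run on simulated data with independent noise and no built-in equal values between arrays. That run checks the calculation and not the calls made here. Alternatives changed the floor, the choice of row, the normalization, the variance model, the replicate block and the arrays included.

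The receptors and lists were chosen with earlier results of these data known. Named were all receptors, the 3 tested genes of each related list with the largest difference, fixed ligands and partners of the receptors, and the 6 genes nearest to the receptors' median. Relatives of the receptors (Mrc2, Stab2, Folr1, Colec12, Itgam, Itgax), Cd209a and the marker genes given with values were named after their values were seen.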

Additional observations from a re-analysis of the deposited data

How the results depend on the processing

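Under 11 alternatives each, the 7 lower receptors stayed below wild type in 77 of 77 values, and the median of the 8 lay between -1.63 and -1.35 when single arrays were dropped and between -1.52 and -1.48 otherwise. Timd4 lay between -0.44 and 0.44 when single arrays were dropped, since such values also hold the gap between replicates. Arrays with the same number left their group mean together (Pearson r = 0.92 over 17841 genes, which are not independent and include the equal values), but the labels do not say what a number shares, so the replicate block was an alternative: it called 0 genes at the adjusted limma p and 2319 at the unadjusted p. Quantile normalization again with the replicate block called 399 genes at the adjusted p and an intensity trend 49. Raising the fold to 2 gave 102 genes lower within both replicates in place of 206. With a floor set to the median row, 1 macrophage transcription factor was at least 1.5-fold lower, in place of 2, and 5 lectin receptors in place of 7, since fewer genes were tested. Of 54 other named genes, 19 passed the adjusted limma threshold after quantile normalization again with the block, and 0 under the other alternatives. Some small differences turned sign when single arrays were dropped: Gulp1 ran from -0.050 to 0.59, Slc19a1 from -0.25 to 0.32, Slc46a1 from -0.10 to 0.16, Sparc from -0.18 to 0.13, Hmox1 from -0.081 to 0.078, Mrc2 from -0.13 to 0.011 and Stab2 from -0.24 to 0.33. The larger difference of Ly6c2 (-0.86) turned sign as well, from -2.05 to 0.33, although it passed the fold within both replicates. After median centring Slc19a1 was at -0.0047 and Slc46a1 at -0.011, and Hmox1 was at 0.0062 after quantile normalization again, with or without the replicate block. Of 94 alternative list medians, 9 moved beyond the spread between replicates, among them lectin receptors (-0.16 with no floor). Apart from medians close to 0, for which a change of sign was not counted, 0 turned sign.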
